A study of Mus musculus with 28 samples.

Results

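The lipid droplet and triglyceride storage genes described here are Cidea, Cidec, Cideb, Plin2, Plin4, Plin5, Mogat1, G0s2, Pnpla2 and Pnpla3. They were chosen by name, with earlier results of these data known. Each was found once in all 10 gene tables of the study, so they are 10 of the 47719 genes listed. The study measured liver RNA of 28 male C57BL/6 mice, 4 in each of 7 groups, which were about 6 weeks old at the start. All mice but the lean control group ate a diet with 40% of its calories as fat, 22% fructose and 2% cholesterol for 26 weeks to induce non-alcoholic steatohepatitis (NASH), a fatty liver with inflammation. They were then dosed by mouth once a day for 4 weeks. One drug group received 25 mg/kg obeticholic acid (OCA), a modified bile acid that activates the bile acid receptor FXR. Its vehicle group is called OCA vehicle here. The other 3 drug groups received a low, mid or high dose of tropifexor (LJN452), an FXR agonist that is not a bile acid, and shared 1 vehicle group, called tropifexor vehicle. The tropifexor doses were 0.1, 0.3 and 0.9 mg/kg, and they are taken as low, mid and high in that order, which the labels do not spell out. The lean control group ate a diet with 10% of its calories as fat and no fructose or cholesterol. No weeks of diet or of dosing are listed for this group. A change in a vehicle group against lean control is called a diet change here, but diet and vehicle dosing cannot be told apart in it. For both vehicle groups the treatment label names the drug while the sample title says vehicle, and the title was followed.

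Hepatocytes store surplus fatty acids as triglyceride in lipid droplets, which are coated by perilipins and can grow when CIDE proteins pass lipid from a smaller to a larger droplet. Stored triglyceride is released by lipases, of which adipose triglyceride lipase, encoded by Pnpla2, takes the first step and is held back by the G0s2 protein. In fatty mouse liver, Cidea, Cidec and Mogat1 are known as genes that respond to the nuclear receptor PPAR gamma.

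Each table gives 1 FPKM per group (fragments scaled to transcript length and library size), with no values for single mice, so the spread between mice enters only through the test that the authors deposited. A gene is called here when its deposited q, the p-value adjusted over all genes of a table, is under 0.05. Fold changes and q-values in the text are those of the authors' deposited tables unless stated otherwise. A ± after a log2 fold change is a standard error derived from the deposited fold change, test statistic and p-value. The link to the p-value is 1 median ratio per table, so the error need not match the p-value of a single gene. The tables were scaled separately. Levels compared over more than 2 groups were therefore set on the scale of the table of tropifexor vehicle against lean control, and no test was run on them. The depth of a library is unknown. The deposited tables listed 15208 to 16144 genes as tested, and 9 of the 10 storage genes had a test in every table. Plin4 had none in the 6 tables with a vehicle group, so for those only its FPKM is given. In bulk liver RNA, fewer cells of a type and less RNA per cell cannot be told apart.

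The liver identity and the drug labels were checked first. Albumin stood at 30921 to 57975 FPKM over all groups and tables. Nr0b2, the FXR target that encodes the repressor SHP, rose over vehicle by 0.75 with OCA and by 1.87, 2.55 and 2.63 with low, mid and high tropifexor on the log2 scale, in the authors' deposited tables. Cyp8b1, a bile acid synthesis gene that FXR represses, fell in all 4 drug groups, with log2 fold changes of -2.95 with OCA and -6.68, -5.04 and -8.55 with the rising tropifexor doses in those tables.

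The 10 genes spanned a wide range of levels. On the common scale, Plin2, which encodes the main droplet coat protein of hepatocytes, was the highest in both vehicle groups, at 451 FPKM in tropifexor vehicle and 324 FPKM in OCA vehicle. Pnpla3, which encodes a droplet lipase and transacylase related to Pnpla2, was the lowest there, at 0.695 FPKM in tropifexor vehicle and 1.59 FPKM in OCA vehicle. Cidea ranked 6 of 10 in tropifexor vehicle at 20.7 FPKM, and 10 of 10 in low-dose tropifexor at 0.393 FPKM.

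**Figure D1:**
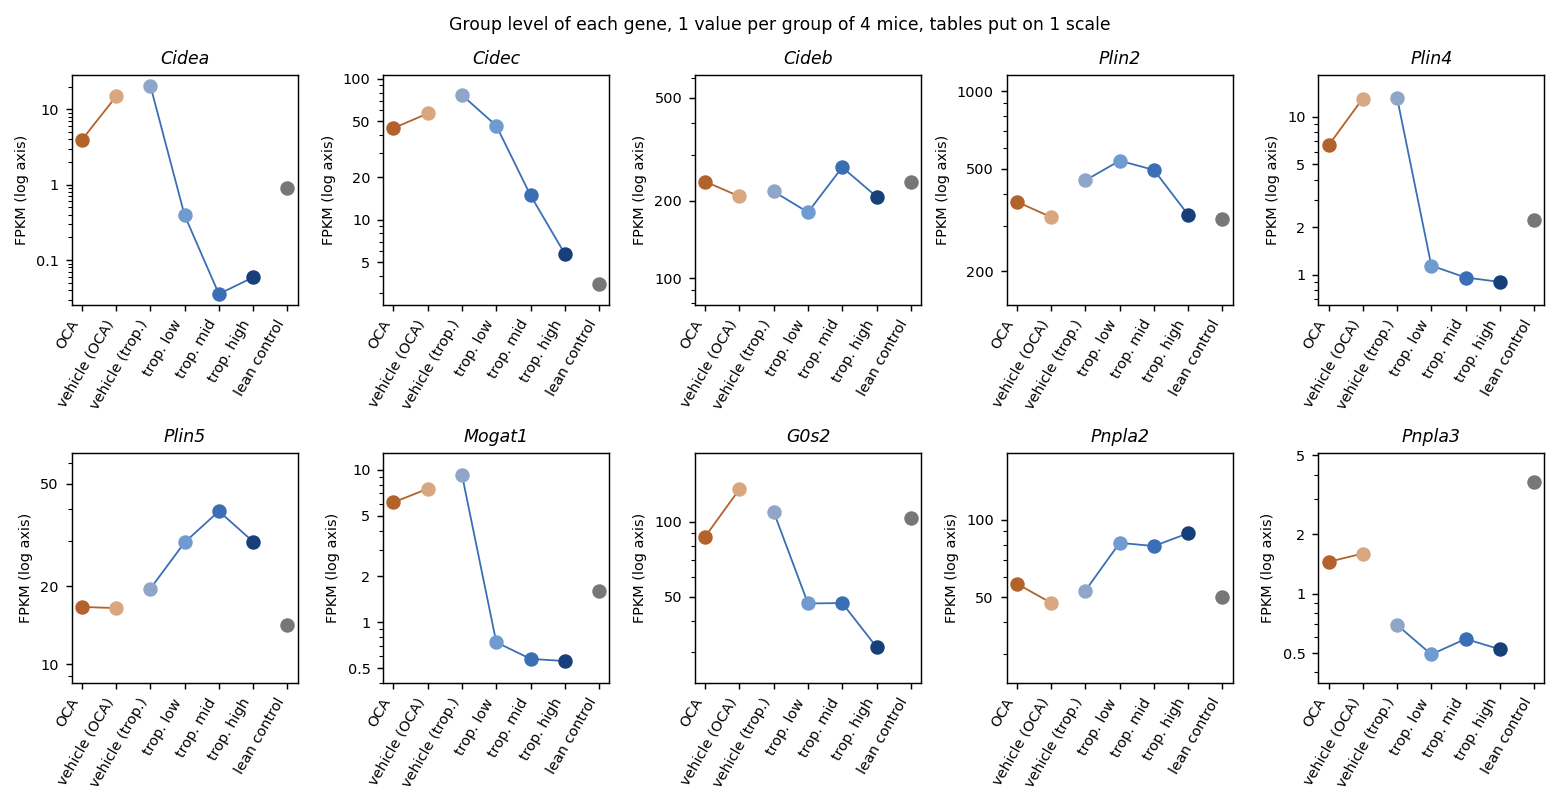
FPKM (log axis, 1 panel per gene) in each of the 7 groups, 1 point per group of 4 mice, with all tables put on 1 scale; lines join OCA to its vehicle and the tropifexor groups to theirs, and the data allow no error bars. Cidea, Plin4 and Mogat1 lie below lean control at all 3 tropifexor doses, Cidec steps down dose by dose, and Plin5 and Pnpla2 lie above their vehicle.

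Cidea, Cidec and Mogat1 rose and Pnpla3 fell with the diet in both vehicle groups. Of the 9 storage genes tested in OCA vehicle against lean control, 3 were called higher and 1 lower, against 11.4% higher and 6.56% lower among all genes tested in that deposited table. In tropifexor vehicle against lean control, 5 were called higher and 1 lower, against 12.1% and 8.53% of all genes. The median log2 fold change of the tested storage genes was 0.22 in OCA vehicle, where that of all genes was 0.02. In tropifexor vehicle it was 0.47, against 0.01 for all genes. The lean control group is shared by both comparisons.

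Under tropifexor, Cidec and Mogat1 fell and Plin5 and Pnpla2 rose at every dose, and Cidea fell at the low and high dose. Low-dose tropifexor against its vehicle gave 2 higher and 3 lower calls of 9, against 6.03% and 5.2% of all genes in the deposited table. The mid dose gave 2 higher and 2 lower calls, against 11.8% and 15.7% of all genes. The high dose gave 2 higher and 4 lower calls, against 9.93% and 15.5%. OCA against its vehicle gave 1 call, lower, of 9, against 1.81% higher and 2.23% lower among all genes. The median log2 fold change of the tested storage genes was -0.15 with OCA, and -0.49, -0.23 and -0.43 with low, mid and high tropifexor, where the medians of all genes were -0.01 with OCA and -0.000561, -0.01 and -0.05 at those doses.

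Upstream sequence is shown for 4 genes that moved with tropifexor, Cidec and Mogat1 (lower) and Plin5 and Pnpla2 (higher), so that the letters can be read beside the values. The sequences are from RefSeq on GRCm38.p6, in the direction of transcription. The runs end at the base before the RefSeq start or before the first annotated exon that the window reaches. Capitals mark matches, on either strand, to AGGTCA, a half-site of nuclear receptors, or to CCAAT.
Cidec, minus strand of chr6:113435761-113436010: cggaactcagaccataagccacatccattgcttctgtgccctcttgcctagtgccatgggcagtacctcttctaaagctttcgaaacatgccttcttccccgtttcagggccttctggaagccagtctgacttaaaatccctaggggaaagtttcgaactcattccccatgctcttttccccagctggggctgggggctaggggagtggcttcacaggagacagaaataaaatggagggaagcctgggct
Mogat1, plus strand of chr1:78510810-78510990: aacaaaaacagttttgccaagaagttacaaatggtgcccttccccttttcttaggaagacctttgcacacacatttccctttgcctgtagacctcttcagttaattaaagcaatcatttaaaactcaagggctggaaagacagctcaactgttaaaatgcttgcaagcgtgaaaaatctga
Plin5, minus strand of chr17:56117597-56117798: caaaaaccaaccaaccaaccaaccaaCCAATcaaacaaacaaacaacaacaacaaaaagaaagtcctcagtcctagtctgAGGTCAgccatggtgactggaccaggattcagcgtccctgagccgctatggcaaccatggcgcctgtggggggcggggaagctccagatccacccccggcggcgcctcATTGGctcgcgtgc
Pnpla2, plus strand of chr7:141454938-141455187: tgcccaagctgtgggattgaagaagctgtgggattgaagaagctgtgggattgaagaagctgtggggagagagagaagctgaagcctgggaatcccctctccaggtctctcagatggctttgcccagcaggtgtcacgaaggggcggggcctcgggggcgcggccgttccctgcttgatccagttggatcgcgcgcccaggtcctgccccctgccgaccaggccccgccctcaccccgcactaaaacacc
The RefSeq table matched 9 of the 10 genes, all but Cidea. The first 250 bases upstream were searched on both strands for AGGTCA, for its inverted repeat AGGTCANTGACCT and direct repeat AGGTCANAGGTCA, which contain it, for the E-box CACGTG, for CCAAT and for the sterol element TCACNCCAC. In Plin5, AGGTCA began at -170 and CCAAT at -224, with CCAAT on the opposite strand at -62. In Plin2 the half-site lay on the opposite strand at -218 and CCAAT began at -73. CCAAT lay on the opposite strand at -18 in Plin4 and at -99 in Pnpla3. The Plin4 match is upstream of the RefSeq start but lies in bases that GENCODE M21 annotates as an exon of Plin4. AGGTCA was present in 14.0% of 32851 promoter windows of this length and CCAAT in 33.8%. The Cidec, Mogat1 and Pnpla2 windows held none of the 6 motifs. Besides the printed window, Cidec had another, at chr6:113434765-113435014, which is not shown and held none either. The inverted repeat, the direct repeat, the E-box and the sterol element are in 0.00609%, 0.0335%, 6.02% and 1.05% of all windows, and none was in a window of the 9 genes.

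Cidea encodes a CIDE protein of brown fat and of fatty liver that promotes the fusion of droplets. The gene lies on chromosome 18 (GRCm38, 67343604 to 67367785, plus strand). Its common-scale level was 3.93 FPKM in OCA mice and 14.8 FPKM in OCA vehicle mice. It was 20.7 FPKM in tropifexor vehicle and 0.393, 0.0356 and 0.0592 FPKM at the low, mid and high tropifexor dose. It was 0.914 FPKM in lean control. Both vehicle groups stood far above lean control, and all tropifexor groups stood below it.

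Against lean control, Cidea rose 16.2-fold in OCA vehicle (log2 4.02 ± 0.21, q = 0.000588) and 22.6-fold in tropifexor vehicle (log2 4.50 ± 0.22, q = 0.000507), in the authors' deposited tables. Cidea fell with OCA against its vehicle (log2 -1.92 ± 0.19, q = 0.00268, in the authors' deposited table), the only storage gene called with OCA. It fell at the low tropifexor dose (log2 -5.72 ± 0.69, q = 0.000968) and at the high dose (log2 -8.43 ± 0.83, q = 0.0201), in the authors' deposited tables. At the mid dose its FPKM was the lowest of all groups, and the log2 fold change of -9.17 ± 2.00 was not called (q = 0.297 in the authors' deposited table). That error of 2.00 was the widest among the storage genes in any table. Even so, the ± of Cidea was narrower than its deposited Cuffdiff p-value would give, which was 0.132 at the mid and 0.0043 at the high dose. With a pseudocount of 1 FPKM the rises over lean control shrank to 3.04 in OCA vehicle and 3.50 in tropifexor vehicle on the log2 scale. The changes over vehicle were then -1.70 with OCA, -4.08 at the low dose and -4.38 at the mid dose.

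Set against lean control, Cidea with OCA was still higher by 2.10 ± 0.25 (q = 0.000624 in the authors' deposited table). At the high tropifexor dose it was 15.4-fold lower than in lean control (log2 -3.95 ± 0.85, q = 0.0363 in that deposited comparison). Both values are under 1 FPKM, at 0.0571 FPKM at the high dose and 0.880 FPKM in lean control, so a minimum of 1 FPKM in a group leaves Cidea out there. With a pseudocount of 1 FPKM the difference was -0.83 on the log2 scale. The low dose (-1.22, q = 0.192) and the mid dose (-4.68, q = 0.207) were not called against lean control in the deposited tables. In order of level, tropifexor vehicle and OCA vehicle came first, and the difference between their rises over lean control was not called, at 0.48 with a 95% interval of -0.75 to 1.71. OCA, lean control and the low, high and mid tropifexor groups followed.

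A transcript on the opposite strand within the Cidea locus, B430212C06Rik, shares no exonic base with Cidea. In the authors' deposited tables it rose with the diet by 3.65 in OCA vehicle and 3.40 in tropifexor vehicle. It fell against vehicle at the low, mid and high tropifexor dose, with log2 fold changes of -1.74, -1.78 and -2.64. It was not called with OCA (-0.30, q = 0.999).

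Cidec (also called Fsp27) encodes the CIDE protein that enlarges droplets most strongly in fat cells and is known to rise in fatty mouse liver. The gene spans 113424634 to 113435760 on the minus strand of chromosome 6. Its common-scale level was 44.7 FPKM in OCA mice and 56.8 FPKM in OCA vehicle mice. It was 76.7 FPKM in tropifexor vehicle, 46.6 FPKM at the low dose, 14.9 FPKM at the mid dose and 5.74 FPKM at the high dose. Lean control stood at 3.48 FPKM. The tropifexor groups were ordered by dose, and every NASH diet group stayed above lean control.

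The diet raised Cidec 16.3-fold in OCA vehicle (log2 4.03 ± 0.19, q = 0.000588) and 22.1-fold in tropifexor vehicle (log2 4.46 ± 0.21, q = 0.000507), in the authors' deposited tables. Against vehicle it fell at every tropifexor dose, with log2 fold changes of -0.72 ± 0.22 (q = 0.00845) at the low, -2.35 ± 0.17 (q = 0.000361) at the mid and -3.72 ± 0.19 (q = 0.000396) at the high dose in those tables. With OCA the change of -0.35 ± 0.15 was not called (q = 0.211 in the authors' deposited table). The high dose left Cidec 1.65-fold above lean control (q = 0.00571), the mid dose 4.28-fold and the low dose 13.4-fold, all called in the authors' deposited tables.

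The log2 fold change of Cidec at the high dose minus that at the low dose was -3.00 (95% interval -4.17 to -1.84), a difference that passed 0.05 after adjustment over all genes, as did 0.278% of all genes. The test compared deposited fold changes, using the standard errors implied by the deposited statistics. The steps between neighbouring doses were -1.64 from low to mid (95% interval -2.75 to -0.52) and -1.37 from mid to high (95% interval -2.39 to -0.34). Neither step passed the threshold after adjustment. These deposited effects share 1 vehicle group, and their errors were added as if they did not.

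Cideb encodes the CIDE protein hepatocytes use in the assembly of very low density lipoprotein. Its common-scale level lay between 180 FPKM at the low tropifexor dose and 269 FPKM at the mid dose, with 237 FPKM in OCA mice and 236 FPKM in lean control. It was not called in any of the 10 deposited tables, and its log2 fold changes against vehicle were 0.19 with OCA and -0.27, 0.32 and -0.05 at the low, mid and high dose. Of its 1488 exonic bases, 1136 overlap Nop9 on the opposite strand. The libraries were built with a kit that keeps the strand, per the labels' protocols, but no label or header says that fragments were counted by strand. If they were not, Cideb and Nop9 reads cannot be told apart there. Nop9 stood at 5.30 to 6.83 FPKM and was not called in any table either.

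The perilipins, which coat the droplet and control the access of lipases, did not share 1 direction. Plin2 stood at 372 FPKM in OCA mice and 324 FPKM in OCA vehicle mice on the common scale. It was 451 FPKM in tropifexor vehicle, 537 FPKM at the low dose, 495 FPKM at the mid dose and 331 FPKM at the high dose, against 320 FPKM in lean control. It rose with the diet in tropifexor vehicle by 0.50 ± 0.18 (q = 0.0275 in the authors' deposited table), and was at 0.02 ± 0.21 in OCA vehicle (q = 0.978). None of the 4 drug groups was called against its vehicle for Plin2, with -0.43 ± 0.18 at the high dose nearest to the threshold (q = 0.0658 in the authors' deposited table). Against lean control it was higher at the low dose by 0.75 and at the mid dose by 0.63, both called, and stood at 0.05 at the high dose (q = 0.865 in the authors' deposited table).

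Plin4, a perilipin of small and newly formed droplets in fat cells, stood at 6.61 FPKM in OCA mice and 13.1 FPKM in OCA vehicle mice on the common scale. It was 13.2 FPKM in tropifexor vehicle and 1.15, 0.964 and 0.904 FPKM at the low, mid and high dose, against 2.24 FPKM in lean control. Both vehicle groups and the OCA group were above lean control, and the tropifexor groups were below it. The deposited test failed for Plin4 in all 6 tables with a vehicle group, and it failed in the same tables for Hdgfl2, a gene on the opposite strand that shares 17 exonic bases with Plin4. From the deposited FPKM, Plin4 was 1.99-fold lower with OCA than in its vehicle, and 11.5-fold, 13.7-fold and 14.5-fold lower at the low, mid and high tropifexor dose, with no test. Against lean control the test ran: Plin4 was higher with OCA by 1.56 ± 0.25 (q = 0.000624), and lower at the mid dose (-1.21 ± 0.29, q = 0.00183) and the high dose (-1.31 ± 0.33, q = 0.00332), in the authors' deposited tables. The low dose was not called (-0.96, q = 0.0810).

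Plin5, the perilipin of oxidative tissues that tethers droplets to mitochondria and binds adipose triglyceride lipase, lies 1797 bases from Plin4 on chromosome 17, and its level was higher, not lower, in the tropifexor groups. Its common-scale level was 16.7 FPKM in OCA mice and 16.5 FPKM in OCA vehicle mice. It was 19.6 FPKM in tropifexor vehicle, 29.6 FPKM at the low dose, 39.2 FPKM at the mid dose and 29.8 FPKM at the high dose, against 14.2 FPKM in lean control. All tropifexor groups stood above every other group. Against vehicle Plin5 rose by 0.60 ± 0.17 (q = 0.00601) at the low dose, 1.01 ± 0.13 (q = 0.000361) at the mid dose and 0.62 ± 0.13 (q = 0.000396) at the high dose, in the authors' deposited tables. OCA left it at 0.01 ± 0.12 (q = 0.999 in the authors' deposited table). The diet effect was called in tropifexor vehicle (0.47 ± 0.13, q = 0.00216) and not in OCA vehicle (0.22 ± 0.12, q = 0.253) in those tables. The diet effects of both vehicle groups differed by 0.25 with a 95% interval of -0.44 to 0.95, and the difference was not called.

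Mogat1 encodes monoacylglycerol acyltransferase 1, which makes diacylglycerol for triglyceride synthesis and is low in lean mouse liver. It lies on chromosome 1 (78510991 to 78538173, plus strand). BC035947 on the opposite strand shares 200 exonic bases with it and did not exceed 0.172 FPKM in any table. Its common-scale level was 6.12 FPKM in OCA mice and 7.51 FPKM in OCA vehicle mice. It was 9.23 FPKM in tropifexor vehicle and 0.740, 0.576 and 0.558 FPKM at the low, mid and high dose, against 1.60 FPKM in lean control. At all 3 tropifexor doses its level lay below that of lean control. The diet raised it by 2.23 ± 0.30 in OCA vehicle (q = 0.000588) and 2.53 ± 0.31 in tropifexor vehicle (q = 0.000507), in the authors' deposited tables. It fell against vehicle at every tropifexor dose, with log2 fold changes of -3.64 ± 0.74 (q = 0.000968) at the low, -4.00 ± 1.27 (q = 0.000361) at the mid and -4.03 ± 0.62 (q = 0.000396) at the high dose in those tables. With OCA it was not called (-0.30 ± 0.29, q = 0.970 in the authors' deposited table). The difference between the high-dose and low-dose effects was -0.39 with a 95% interval of -4.26 to 3.47. Against lean control none of the tropifexor groups was called for Mogat1, with -1.52 ± 0.63 at the high dose (q = 0.0767 in the authors' deposited table).

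Pnpla2 and its inhibitor G0s2 moved in opposite directions at the high dose. Pnpla2 stood at 56.4 FPKM in OCA mice and 47.5 FPKM in OCA vehicle mice on the common scale. It was 53.0 FPKM in tropifexor vehicle, 81.3 FPKM at the low dose, 79.0 FPKM at the mid dose and 88.5 FPKM at the high dose, against 50.1 FPKM in lean control. The tropifexor groups lay above all the others, which were close together. Against vehicle Pnpla2 rose by 0.62 ± 0.18 (q = 0.0138), 0.58 ± 0.14 (q = 0.000361) and 0.76 ± 0.13 (q = 0.000396) at the low, mid and high dose, in the authors' deposited tables. It was not called with OCA (0.24 ± 0.13, q = 0.564) or with the diet in either vehicle group (-0.08 in OCA vehicle and 0.08 in tropifexor vehicle) in those tables.

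G0s2, whose protein binds and inhibits the Pnpla2 lipase, stood at 87.3 FPKM in OCA mice and 135.5 FPKM in OCA vehicle mice on the common scale. It was 109.8 FPKM in tropifexor vehicle, 47.0 FPKM at the low dose, 47.2 FPKM at the mid dose and 31.4 FPKM at the high dose, against 103.8 FPKM in lean control. It fell against vehicle at the high dose (log2 -1.79 ± 0.55, q = 0.0273 in the authors' deposited table). The changes of -1.22 ± 0.71 at the low dose (q = 0.380), -1.21 ± 0.57 at the mid dose (q = 0.147) and -0.64 ± 0.56 with OCA (q = 0.941) were not called in those tables. The high dose was also lower than lean control (log2 -1.73 ± 0.61, q = 0.0369 in the authors' deposited table). The high-dose and low-dose effects differed by -0.57 with a 95% interval of -4.18 to 3.04.

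Pnpla3 stood at 1.45 FPKM in OCA mice and 1.59 FPKM in OCA vehicle mice on the common scale. It was 0.695 FPKM in tropifexor vehicle and 0.493, 0.590 and 0.523 FPKM at the low, mid and high dose, against 3.68 FPKM in lean control. Every NASH diet group lay below lean control. On GENCODE M21 it shares 105 exonic bases with Gm49513 on the same strand, a gene not analysed here. It fell with the diet, at -1.21 ± 0.15 in OCA vehicle (q = 0.000588) and -2.41 ± 0.17 in tropifexor vehicle (q = 0.000507), in the authors' deposited tables. No drug group was called against its vehicle, with log2 fold changes of -0.15 with OCA and -0.49, -0.23 and -0.39 at the low, mid and high tropifexor dose in the deposited tables. The diet effects of the vehicle groups differed by -1.20 with a 95% interval of -2.11 to -0.29, which was not called after adjustment over all genes. With the smaller errors derived from the deposited p-values it was called (interval -1.65 to -0.75).

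**Figure D2:**
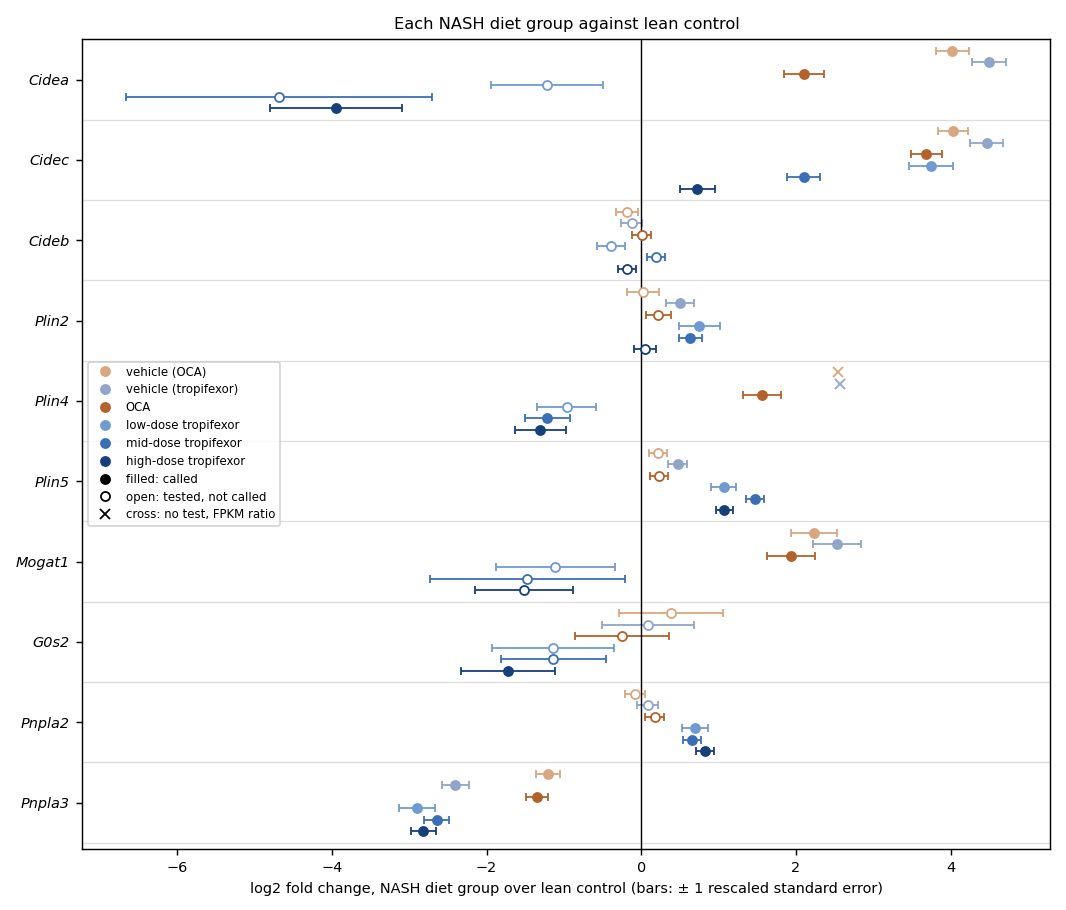
Log2 fold change of each storage gene in each NASH diet group over lean control, from the authors' deposited tables, with bars of 1 standard error on each side. Cidec lies right of zero in all 6 groups and moves towards it with the tropifexor dose, reaching 0.72 at the high dose, while Pnpla3 lies left of zero in all 6.

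Set against lean control, Cidec was higher and Pnpla3 lower in all 4 drug groups, while Cidea, Plin4 and Mogat1 were called higher with OCA and at no tropifexor dose. With OCA, 4 of the 10 genes were called higher and 1 lower, against 10.3% and 6.5% of all genes in the deposited table. At the low tropifexor dose 4 were higher and 1 lower, against 13.8% and 10.1% of all genes. At the mid dose 4 were higher and 2 lower, against 11.7% and 11.5%. At the high dose 3 were higher and 4 lower, against 12.2% and 15.2%. The 3 higher at the high dose were Cidec, Plin5 and Pnpla2, and the 4 lower were Cidea, Plin4, G0s2 and Pnpla3.

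**Figure D3:**
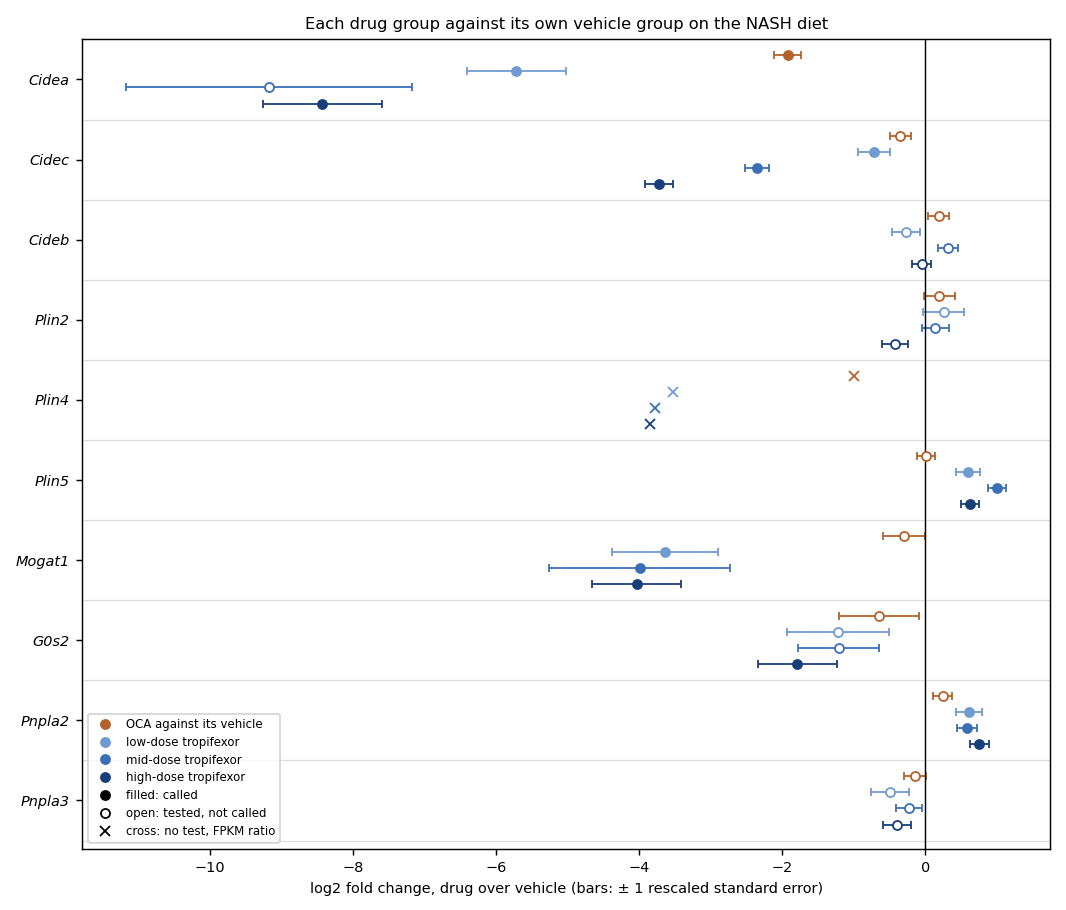
Log2 fold change of each storage gene in each drug group over its own vehicle group, from the authors' deposited tables, with bars of 1 standard error on each side. Cidea has the lowest points in all 4 drug groups, with -1.92 for OCA, Cidec falls further at each tropifexor dose, and Plin5 and Pnpla2 lie right of zero at all 3 tropifexor doses.

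The drug effects were then set against each other, with the doses differing between the compounds (25 mg/kg OCA; 0.1, 0.3 and 0.9 mg/kg tropifexor) and each effect taken against its own vehicle. In all, 63 differences were computed, for 9 genes in 7 contrasts, and adjusted over all genes within a contrast. The effect of the high tropifexor dose minus that of OCA was -3.37 for Cidec (95% interval -4.33 to -2.41) and -6.51 for Cidea (95% interval -9.91 to -3.10), 2 calls where 1.69% of all genes were called. Cidea stood at 0.0621 FPKM at the high dose, and its error there was narrower than its deposited Cuffdiff p-value of 0.0043 would give. The mid dose minus OCA was -2.00 for Cidec (95% interval -2.91 to -1.10), 1 call against 1.48% of all genes. The low dose minus OCA gave no call among the 9 genes, against 0.418% of all genes, with -3.79 for Cidea (95% interval -6.65 to -0.94) and -3.34 for Mogat1 (95% interval -6.53 to -0.15).

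Between tropifexor doses, high minus low gave 1 call, Cidec, against 0.278% of all genes. Mid minus low and high minus mid gave none, against 0.423% and 0.319%. The diet effects of the vehicle groups gave none either, against 0.0985%. For the genes not called, intervals were wide: high minus OCA was 0.61 for Plin5 (95% interval -0.09 to 1.31), 0.51 for Pnpla2 (95% interval -0.24 to 1.26) and -3.73 for Mogat1 (95% interval -6.47 to -0.99). The standard errors implied by the deposited statistics were 2.03 to 2.05 times those derived from the deposited p-values. With the smaller errors derived from p the calls became 4 for high minus OCA (background 11.4%), 4 for mid minus OCA (12%), 2 for low minus OCA (5.24%), 1 for high minus low (5.63%), 1 for high minus mid (2.32%), 1 for mid minus low (10.3%) and 1 for the vehicle groups (0.381%). The added genes were Cidea, Mogat1 and Plin5 at the mid dose, Mogat1 and Plin5 at the high dose, and Cidea and Mogat1 at the low dose, each against OCA. For Cidea at the mid dose the smaller error was narrower than its deposited Cuffdiff p-value of 0.132 would give. Cidec was the gene added between neighbouring doses, and Pnpla3 the one added between vehicle groups.

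Other genes of droplet biology were read from 5 lists, which were chosen with earlier results of these data known. Among 12 other droplet coat and biogenesis genes, 11 were tested in each deposited table. With the diet 3 were higher and none lower in each vehicle group, where 11.4% of all genes were higher in OCA vehicle and 12.1% in tropifexor vehicle. Among them was Hilpda, which encodes a droplet protein that inhibits Pnpla2, at 0.58 in OCA vehicle and 0.77 in tropifexor vehicle on the log2 scale. With OCA, where 2.23% of all genes were lower, 1 of the 11 fell, Fitm2, an endoplasmic reticulum protein needed for droplet budding, at -0.39 in the authors' deposited table. Fitm2 fell at the low, mid and high tropifexor dose, with -1.06, -1.14 and -1.55. At those doses 4, 1 and 5 of the 11 genes were called lower, against 5.2%, 15.7% and 15.5% of all genes, so the count at the mid dose was no larger than that share. Hsd17b13, a hepatocyte droplet enzyme, was the only one higher, by 0.46 at the mid and 0.68 at the high dose, in the authors' deposited tables. There 11.8% and 9.93% of all genes were higher.

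Of 12 triglyceride assembly genes, 1 was higher and 3 were lower in OCA vehicle, and 2 were higher and 4 lower in tropifexor vehicle. Among all genes 11.4% were higher and 6.56% lower in OCA vehicle, and 12.1% and 8.53% in tropifexor vehicle. Gpat3 (listed as Agpat9), an acyltransferase of the first step of glycerolipid synthesis, rose by 1.83 in OCA vehicle and 1.86 in tropifexor vehicle. Lpin1, a phosphatidate phosphatase and coregulator, fell, with -1.28 in OCA vehicle and -1.56 in tropifexor vehicle, in the authors' deposited tables. OCA called none of the 12, where 1.81% of all genes were higher and 2.23% lower. Tropifexor called 2 higher and 3 lower at the low dose, 3 and 3 at the mid dose, and 2 and 4 at the high dose. The higher calls stood against 6.03%, 11.8% and 9.93% of all genes at the low, mid and high dose, and the lower calls against 5.2%, 15.7% and 15.5%. Mogat2, the second monoacylglycerol acyltransferase, rose by 2.03 at the low dose and 1.63 at the high dose while Mogat1 fell, in the authors' deposited tables. At the mid dose Mogat2 was not called (0.61). Among the largest called changes of this list, Lpin1 also fell against vehicle at the mid (-1.12) and high (-1.57) tropifexor dose. Lpin2 rose at the low (1.16) and mid (1.24) dose.

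Of 7 other lipolysis genes, 1 was higher and 1 lower with the diet in OCA vehicle, and 2 were higher and 1 lower in tropifexor vehicle. The shares of all genes were 11.4% higher and 6.56% lower in OCA vehicle, and 12.1% and 8.53% in tropifexor vehicle. Against vehicle, none was higher and 2 were lower at the low dose, 2 were higher and 2 lower at the mid dose, and 1 was higher and 3 were lower at the high dose. At the mid dose 11.8% of all genes were higher and 15.7% lower, at the high dose 9.93% and 15.5%, and at the low dose 5.2% were lower. Mgll, which encodes monoacylglycerol lipase, fell by 1.56 at both the low and the high dose. Abhd6, another monoacylglycerol lipase, fell at the low, mid and high dose, with -1.07, -0.92 and -1.10, in the authors' deposited tables. Lipc, hepatic lipase, rose by 1.15 at the mid dose and 0.86 at the high dose. With OCA 1 of the 7 was called, Abhd6, lower at -0.56 in the authors' deposited table, where 2.23% of all genes were lower.

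Of 6 lipoprotein export genes, none was called with OCA, 1 was lower at the low dose (Mttp, the triglyceride transfer protein of lipoprotein assembly, at -0.64), 2 were higher at the mid dose and 1 was higher at the high dose. Among all genes 5.2% were lower at the low dose, and 11.8% and 9.93% were higher at the mid and high dose. With OCA 1.81% were higher and 2.23% lower. The 1 at the high dose was Tm6sf2, a hepatic lipoprotein lipidation gene, at 0.88, and it was lower with the diet, at -0.46 in OCA vehicle and -0.78 in tropifexor vehicle, in the authors' deposited tables. Of 8 lipid uptake genes, 5 were higher with the diet in OCA vehicle and 4 in tropifexor vehicle, against 11.4% and 12.1% of all genes. Lpl, lipoprotein lipase, rose by 2.76 in OCA vehicle and 2.72 in tropifexor vehicle in the authors' deposited tables. With OCA 2 of the 8 were lower, Lpl at -0.76 and Fabp4, a fatty acid binding protein, at -0.46, where 2.23% of all genes were lower, in the authors' deposited tables. At the low tropifexor dose 3 were lower, and at the mid dose 4 were lower and 1 was higher, against 5.2% and 15.7% of all genes lower. At the mid dose 11.8% of all genes were higher, so 1 of 8 was near that share. At the high dose 7 of the 8 were lower, against 15.5% of all genes, led by Vldlr, the very low density lipoprotein receptor, at -4.81, and Fabp4 at -2.25. The size of the Vldlr change rests on low levels. Over the tables they were 0.0436 to 0.0474 FPKM at the high dose and 1.28 to 1.46 FPKM in tropifexor vehicle. The median of the uptake list was -0.89 at the high dose, where that of all genes was -0.05, and -0.06 with OCA, where that of all genes was -0.01.

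**Figure D4:**
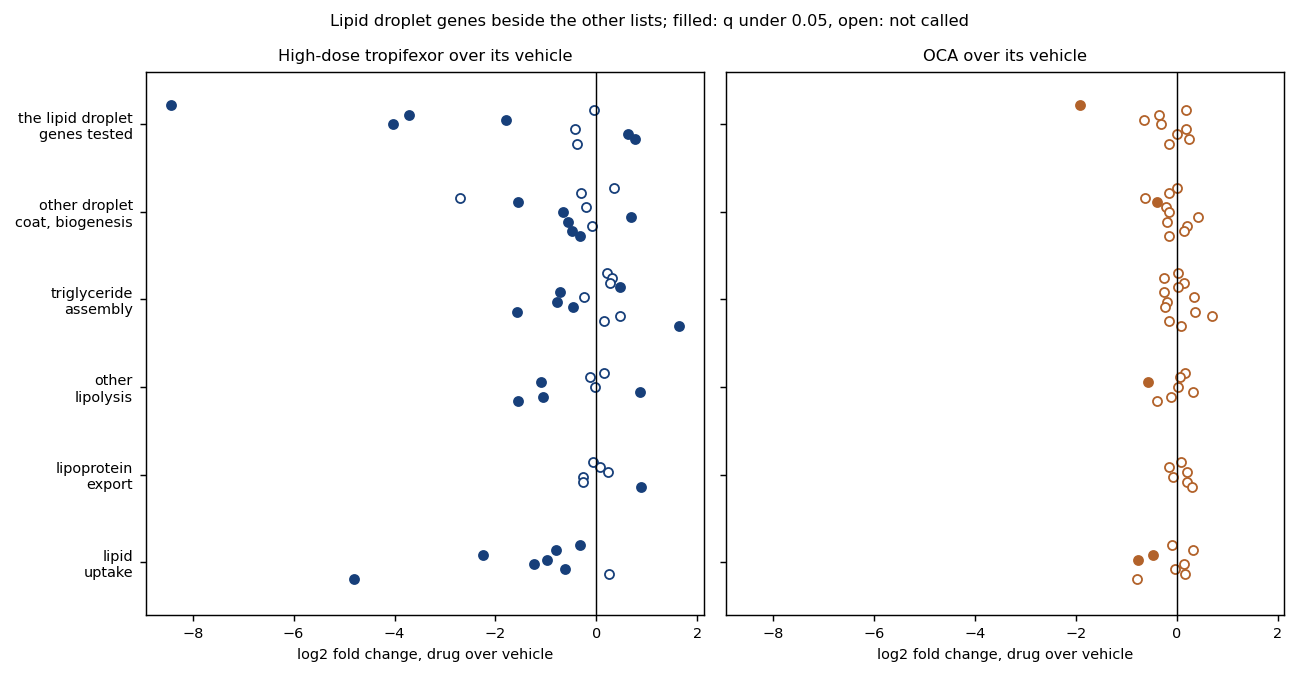
Log2 fold changes over vehicle of the tested storage genes and of the 5 other lists (listed down the page), for high-dose tropifexor (left) and OCA (right), 1 point per gene, from the authors' deposited tables; filled points were called. At the high dose 7 of the 8 uptake genes are filled and left of zero, and the storage genes spread from -8.43 for Cidea to 0.76 for Pnpla2.

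Cidea, Cidec, Plin4 and Mogat1 are best known from fat cells or from fat-laden liver, so markers of fat cells were read beside them. Adipoq, Lep, Retn and Plin1 did not exceed 0.167, 0.0408, 0.125 and 0.0682 FPKM in any group of any table. The 7 adipocyte markers together summed to 16.2 to 17.5 FPKM in OCA mice and 62.9 to 67.2 FPKM in OCA vehicle mice over the tables. They summed to 56.7 to 65.0 FPKM in tropifexor vehicle, 14.4 to 15.6 FPKM at the low dose, 6.64 to 7.17 FPKM at the mid dose and 6.02 to 6.55 FPKM at the high dose, against 7.42 to 8.38 FPKM in lean control. Nearly all of that sum came from Cfd, the complement factor adipsin, and Fabp4, and without them it was 0.0938 to 0.580 FPKM over all groups. Cfd rose with the diet by 5.12 in OCA vehicle and 4.57 in tropifexor vehicle in the authors' deposited tables. It fell with OCA (-4.18) and at the low (-6.95) and high (-5.90) tropifexor dose, in the authors' deposited tables. At the mid dose its change of -9.20 was not called (q = 0.0567), and Adig was listed at 0 at the high dose.

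The macrophage markers moved with the droplet genes in part. Of 9 markers, 6 were higher and 1 lower with the diet in each vehicle group, and 4, 1, 7 and 5 were lower with OCA and with low, mid and high tropifexor, with none higher. Among all genes 11.4% were higher and 6.56% lower with the diet in OCA vehicle, and 12.1% and 8.53% in tropifexor vehicle. With OCA 2.23% were lower, and 5.2%, 15.7% and 15.5% were lower at the rising tropifexor doses. They summed to 180 to 193 FPKM in OCA mice and 272 to 289 FPKM in OCA vehicle mice. The sum was 259 to 296 FPKM in tropifexor vehicle, 206 to 224 FPKM at the low dose, 118 to 127 FPKM at the mid dose and 152 to 166 FPKM at the high dose, against 128 to 145 FPKM in lean control. None of the 9 was listed at 0 in any group. Their part in the changes of the storage genes was not tested. Of 6 stellate cell markers, 2 were higher and 1 lower with the diet in each vehicle group, beside the same diet shares of all genes. None was called with OCA, and 0, 1 and 1 were higher and 1, 4 and 4 lower at the low, mid and high dose. The shares of all genes at those doses were 6.03%, 11.8% and 9.93% higher and 5.2%, 15.7% and 15.5% lower. Of 6 hepatocyte markers, none was called with the diet in OCA vehicle (median log2 fold change -0.54), and 4 were lower and none higher in tropifexor vehicle (median -0.55), where 8.53% of all genes were lower. They summed to 45801 FPKM in OCA vehicle and 70986 FPKM in lean control in that deposited table, and to 41947 FPKM in tropifexor vehicle and 71355 FPKM in lean control in the other. None of the 6 was called with OCA, and 0, 3 and 3 were higher and 1, 1 and 1 lower at the low, mid and high tropifexor dose. Among all genes 6.03%, 11.8% and 9.93% were higher there. The shares lower were 5.2%, 15.7% and 15.5%, so the lower counts at the mid and high dose were near them. The part of the stellate cell and hepatocyte markers in the changes of the storage genes was not tested.

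The genes whose 6 log2 fold changes against lean control lay closest to those of a storage gene were sought among 11607 genes, by the root mean square difference over the 6 comparisons, which all share lean control. Closest to Cidea was Cfd (1.34), followed by Mogat1 (1.97) and Cyp7a1 (2.01), which encodes the enzyme that limits the classical route of bile acid synthesis. These distances were wide: at the high dose Cfd stood at -1.34 and Cidea at -3.95. The compared genes had to reach 1 FPKM in a group of each table, which Cidea itself did not at any tropifexor dose. Closest to Cidec were the macrophage metalloproteinase Mmp12 (0.665), the lipid-sensing receptor Trem2 (0.813) and the iron-carrier binding protein Lcn2 (0.903). Closest to Plin5 were Gm17634 (0.123), Lrrc20 (0.139) and Dgkd (0.149), a diacylglycerol kinase. Closest to Pnpla3 was the prolactin receptor gene Prlr (0.295).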

How the data were processed

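Per the labels' protocols, frozen livers were extracted with Trizol and libraries were built with a TruSeq kit that keeps the strand of mRNA. The submitters' processing notes name bcl2fastq, STAR 2.5.1b, Cuffnorm, Cufflinks 2.2.1, Cuffdiff and the build GRCm38. The FPKM values are the authors' deposited group values, 1 per group of 4 mice, per the file headers. The log2 fold change is deposited as the second group over the first, which is the drug or diet group over its comparator. The test statistic is a score the authors deposited beside it, and the p-value and q-value are the authors' deposited Cuffdiff output.

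The 10 members, the other gene lists and the marker lists were chosen with earlier results of these data known. A gene was called at status OK and q under 0.05, which matched the authors' own flag in all 10 tables. The deposited columns use the codes LJN or LNJ, read as tropifexor, and INT, which was taken as OCA because it was the only other compound. The vehicle column of each drug table was matched to a vehicle group by the name of its table. After a constant offset it deviated from that group by a median of at most 0.000980 (log2), against at least 0.0914 from the other vehicle group. That match and the doses rest on this reading, since the labels do not spell them out.

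A standard error implied by fold change over statistic was used for differences of effects, with normal p-values adjusted by the Benjamini-Hochberg method over all genes with a test in both tables. Dividing it by the median ratio of the normal z of the deposited p to the statistic (2.03 to 2.05) gave the errors printed after ±. The test of differences was run with both errors on simulated data, whose noise was normal and drawn with the errors printed after ±. Which of the 2 errors is right was therefore not tested. Named genes were all members, up to 2 called genes with the largest fold change per other list and comparison with a vehicle group, and up to 3 genes most like a member. Exon overlaps are from GENCODE M21 on GRCm38. Alternatives were a q under 0.01, a minimum of 1 FPKM, a log2 fold change of at least 1, a pseudocount of 1, centring on the median gene, drug effects taken through lean control and the other standard error. Python 3.11.15, pandas 2.3.3 and scipy 1.17.1 were used. The labels name the samples as separate replicates of a group.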

Additional observations from a re-analysis of the deposited data

Results flagged for a closer look

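Cidec fell further with high-dose than with low-dose tropifexor, with a difference of -3.00 between the log2 fold changes over their shared vehicle. Its tropifexor effect minus its OCA effect was -2.00 at the mid dose and -3.37 at the high dose, each effect taken against its own vehicle. For Cidea the high-dose effect minus the OCA effect was -6.51. These 4 differences are listed because a test of the difference between effects, over all genes of a contrast, passed the threshold of 0.05. The Cidea difference rests on a level of 0.0621 FPKM at the high dose. The error used for that effect was narrower than its deposited Cuffdiff p-value of 0.0043 would give, so the call is uncertain.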

How the results depend on the processing

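Counts of storage genes called in the 10 deposited tables stayed within 1.5 times under a q of 0.01 and under a minimum of 1 FPKM, which left 6 of 7 calls at the high dose against lean control because Cidea is under 1 FPKM in both groups there. At a q of 0.01 the calls of Cidea and G0s2 at the high dose were lost against vehicle and against lean control, as were Pnpla2 at the low dose against vehicle and Plin2 in tropifexor vehicle and at the low dose against lean control. Asking for a log2 fold change of at least 1 in addition left 2 of 5 calls at the low tropifexor dose against vehicle and 3 of 5 against lean control, since the smaller changes drop out by construction. With the smaller standard errors, the calls among differences became 1 for the vehicle groups, 1 for mid minus low dose, 1 for high minus mid dose, 2 for low dose minus OCA, 4 for mid dose minus OCA and 4 for high dose minus OCA. With an adjusted p under 0.01, high dose minus OCA kept 1 call of 2. No called fold change turned its sign. Cideb, not called, with OCA against lean control stood at 0.0067 as deposited and -0.0031 after centring. Of 94 fold changes of storage genes, 94 moved by less than 1 standard error on centring, 36 of 36 did when drug effects were taken through lean control, and 34 of 94 moved by more with a pseudocount of 1 FPKM, which shrinks low values by construction. No paired analysis was possible because the tables hold 1 value per group. For the same reason no replicate could be left out and no outlier sought, and the widest error was that of Cidea at the mid dose against vehicle, where its level was under 1 FPKM.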

Other observations

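The following genes were chosen after their values were seen. Dgat2, which encodes the acyltransferase of the last step of triglyceride synthesis in hepatocytes, fell against vehicle at the low, mid and high tropifexor dose, with log2 fold changes of -1.12, -0.60 and -0.72, in the authors' deposited tables. It was not called with OCA (-0.26). Pparg, which encodes PPAR gamma, rose with the diet by 0.83 in OCA vehicle and 1.25 in tropifexor vehicle, in the authors' deposited tables. It fell against vehicle at the low, mid and high tropifexor dose, with -0.75, -1.43 and -1.23 in those tables. With OCA Pparg stood at 0.14 and was not called. Fitm1, the relative of Fitm2 known from muscle, stood at -2.13, -1.97 and -2.71 at the rising tropifexor doses and was not called at any of them in the authors' deposited tables.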
